A study of Mus musculus with 8 samples.

Results

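The lysosomal enzymes and membrane proteins described here are 48 genes named one by one: acid hydrolases of the lysosome, proteins of its membrane, and a few regulators of its genes. The rule gives their symbols. It uses no measured value, but the members were chosen with earlier results of these data known. Their shares beside all tested genes are therefore descriptions. All 48 were found among the 56748 gene IDs of the count tables, and 47 of them were among the 14942 genes with enough counts to test, the exception being the protease gene Ctsh. They were measured by poly-A RNA sequencing in bone marrow-derived mast cells (BMMCs), mast cells grown in culture from whole bone marrow of young adult C57BL/6 mice with IL-3. The 8 libraries formed 2 groups of 4, each numbered 1 to 4. Cells of the Mettl3-RNP group were electroporated with Cas9 ribonucleoproteins (RNPs) whose guide RNAs cut Mettl3, the catalytic enzyme that places N6-methyladenosine on mRNA. The Pulsed group was mock transfected, and all cells were left unstimulated. The paper does not say what the mock mix held, and no group was labelled as a control with another guide RNA. The Mettl3-RNP cultures were pools of edited cells, not clones, and by the study's account they retained some untargeted cells.

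Lysosomes are the acidic compartments in which cells take apart glycans, lipids, proteins and nucleic acids delivered by endocytosis and autophagy. Soluble hydrolases are made in the endoplasmic reticulum, tagged with mannose 6-phosphate in the Golgi and handed over by receptors, while the limiting membrane is built from heavily glycosylated proteins such as LAMP1 and LAMP2. Many of the genes carry a short promoter element read by the transcription factors TFEB, TFE3 and MITF, which move to the nucleus when the kinase mTORC1 is inactive. In mast cells the secretory granules are lysosome-related organelles, which hold lysosomal hydrolases such as beta-hexosaminidase beside proteases and histamine and release them on degranulation.

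Total counts were 32643260 to 45324826 per library. Expression is given as CPM, counts per 1000000 counts of a library after scaling of the library sizes, and p-values come from the edgeR quasi-likelihood test with the replicate number as a block, adjusted by Benjamini-Hochberg over all tested genes, with 0.05 as the threshold. Mettl3 stood at 12.3, 9.18, 4.88 and 9.21 CPM in Mettl3-RNP libraries 1 to 4 and at 25.9, 24.5, 11.2 and 26.5 CPM in Pulsed libraries 1 to 4, lower in each pair (log2 fold change -1.30, SE 0.11, adjusted p = 0.00543). The guides cut the gene, and its mRNA level therefore reports the labels but not the share of edited cells. Exons of Mettl3 share 2308 bases with those of Tox4 on the other strand, and whether strand was used in counting is not stated. Summed over the mast cell markers that could be measured, expression was 38349 to 54127 CPM in the Mettl3-RNP libraries and 43359 to 61042 CPM in the Pulsed libraries, and among them Cpa3, a granule carboxypeptidase, was lower in Mettl3-RNP cells (-0.37, adjusted p = 0.0328). The other 8 markers summed to 21692 to 27984 CPM and 22943 to 26208 CPM, and 5 of the 9 markers had a fitted value above 0.

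The first question was how many of the lysosomal genes differed between the groups. Of the 47 tested members, 11 were higher in Mettl3-RNP cells, or 23.4%, where 2.35% of all tested genes were higher at the same threshold. They were Dnase2b, Naglu, Galns, Smpd1, Arsa, Psap, Fuca1, Ctsd, Ctsb, Scarb2 and Grn. No member passed as lower with edgeR, against 1.39% of all tested genes, and Lamp1 was the sole member with a lower level at an unadjusted p under 0.05; the Wald test of DESeq2 called it lower. With a fold change of at least 1.5 as a further condition 6 members remained, namely Dnase2b, Naglu, Scarb2, Galns, Ctsd and Smpd1, which is 12.8% of the members beside 1.24% of all tested genes.

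The signs of the other members were mixed. In all, 34 of the 47 tested members had a fitted difference above 0, or 72.3% beside 49.8% of all tested genes, the median log2 fold change of the members was 0.10 and that of all tested genes was -0.0013. Of the members, 19 were higher in all 4 pairs, or 40.4%, where 15.7% of all tested genes were, and 3 were lower in all 4 pairs, or 6.38%, where 16.0% of all tested genes were; those 3 were Acp2, Lamp1 and Npc2. For 8 members, or 17.0%, the lowest Mettl3-RNP library lay above the highest Pulsed library, which held for 2.03% of all tested genes. Because RNA was taken from whole cultures, more RNA per cell and more cells of a kind that expresses these genes cannot be told apart.

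The calls leaned on the pairing and on single pairs. With edgeR and no replicate block 0 members passed, as did 0 of all genes, while 11 members and 3.87% of all genes had an unadjusted p under 0.05 and limma-voom and DESeq2, both with the block, called 12 and 16 members, beside 4.30% and 9.70% of all genes and 3.74% in the fit used here. Without replicate 2 the count over all genes went from 559 to 26, and Dnase2b was the only member to pass, with an adjusted p of 0.0380, and the adjusted p of the other 10 genes ran from 0.0517 to 0.182; without replicate 3, 4 members passed (Dnase2b, Naglu, Scarb2 and Smpd1), and without replicate 4, 6 did (these 4 with Ctsd and Galns). Without replicate 1, 8 members passed, the same 6 with Grn and Cd68. The share of all genes that passed was 2.18%, 2.57% and 2.23% without replicates 1, 3 and 4. Arsa, Psap, Fuca1 and Ctsb passed in none of these 4 fits, in which all 11 genes kept a fitted value above 0.

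**Figure D1:**
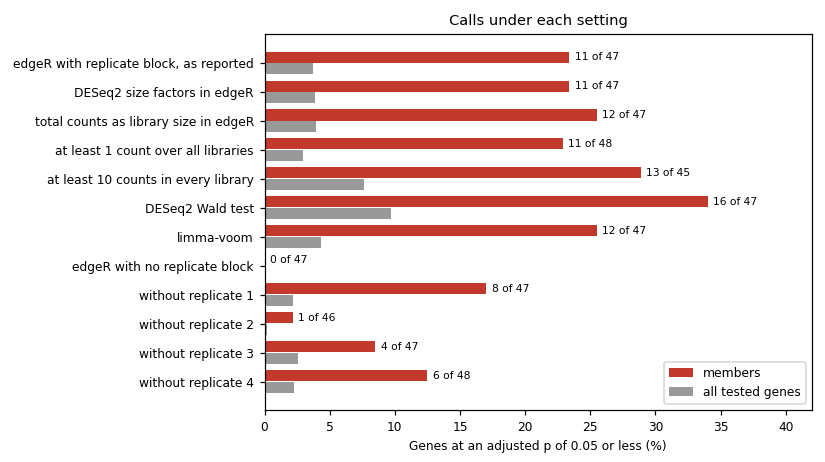
Share of genes at an adjusted p of 0.05 or less (x axis, percent) under each setting (y axis) for the lysosomal members (red, with their number) and for all tested genes (grey). The share of members is above that of all genes under each setting except the fit with no replicate block, where both are 0, and it falls from 11 of 47 to 1 of 46 without replicate 2.

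**Figure D2:**
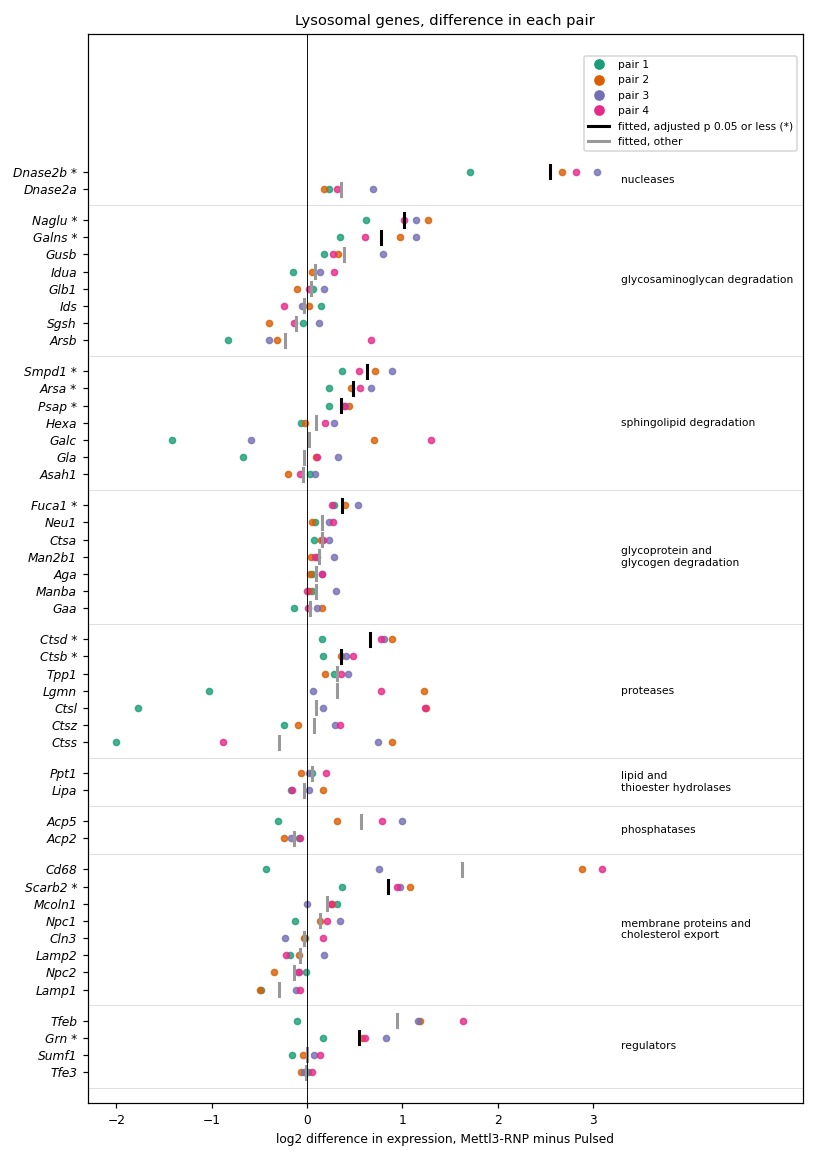
Log2 difference in expression between the Mettl3-RNP and the Pulsed library of the same number (x axis) for the 47 tested members (y axis), grouped by role; coloured points are the 4 pairs and the vertical bars are the fitted values, black with an asterisk where the adjusted p was 0.05 or less. The 11 asterisked genes lie to the right of 0 in all 4 pairs, Dnase2b farthest at 1.71 to 3.04, while Lamp1, Npc2 and Acp2 lie to the left in all 4 pairs.

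Among the nucleases, Dnase2b had the largest fitted change of all 47 tested members. Dnase2b (ENSMUSG00000028185, chr3:146286738-146321351 on the minus strand, build GRCm39) encodes a DNase II of acidic compartments, related to the widely expressed Dnase2a. Its level was 12.4, 20.9, 5.92 and 15.1 CPM in Mettl3-RNP libraries 1 to 4 and 3.77, 3.24, 0.671 and 2.08 CPM in Pulsed libraries 1 to 4. The groups did not overlap, and within each pair the Mettl3-RNP library was higher, by 1.71, 2.67, 3.04 and 2.83 on the log2 scale. The fitted difference was 5.85-fold (log2 2.55, SE 0.22, adjusted p = 0.00543), it rested on 27 to 895 counts per library, and it was the only member to pass with each replicate left out in turn, at log2 fold changes of 2.41 to 2.82. Dnase2a, which encodes the main lysosomal DNase, was far more abundant, at 269, 223, 182 and 229 CPM in Mettl3-RNP and 229, 197, 113 and 183 CPM in Pulsed libraries 1 to 4. It was higher in each pair but the groups overlapped, and the fitted value of 0.36 (SE 0.09) had an adjusted p of 0.0782; it passed with DESeq2 (adjusted p = 0.00896) and when at least 10 counts in every library were required (0.0471).

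Of the 8 genes for the degradation of glycosaminoglycans, 2 were higher in Mettl3-RNP cells and none was lower. Naglu (ENSMUSG00000001751, chr11:100960838-100968517, plus strand) encodes alpha-N-acetylglucosaminidase, which removes terminal N-acetylglucosamine from heparan sulfate. It was measured at 61.0, 82.4, 54.8 and 64.9 CPM in Mettl3-RNP and at 39.7, 34.0, 24.8 and 31.9 CPM in Pulsed libraries. These ranges were separate, and expression was 2.02-fold higher (log2 1.02, SE 0.11, adjusted p = 0.0105). Galns (ENSMUSG00000015027, chr8:123304976-123338276, minus strand) encodes the sulfatase that opens keratan sulfate and chondroitin 6-sulfate. Its CPM values were 7.08, 13.2, 15.6 and 14.7 in Mettl3-RNP and 5.54, 6.66, 6.99 and 9.61 in Pulsed libraries. Mettl3-RNP library 1 lay within the Pulsed range and the other 3 above it, with a fitted difference of 1.72-fold (log2 0.78, SE 0.15, adjusted p = 0.0340).

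The other 6 genes of this class ran from a fitted -0.23 to 0.39. Glb1, beta-galactosidase, had the highest level per length of the class, with 265, 323, 269 and 279 CPM in Mettl3-RNP and 254, 347, 238 and 274 CPM in Pulsed libraries. The groups overlapped throughout, and the fitted value was 0.04 (SE 0.07), with its sign turned to -0.0041 and -0.0098 without replicates 1 and 3. Gusb, beta-glucuronidase, was higher in all 4 pairs at 0.39, with an adjusted p of 0.0812, and passed with DESeq2 and when every gene with at least 1 count was kept. The heparan sulfate sulfatases Sgsh (-0.12) and Ids (-0.03), the iduronidase gene Idua (0.08) and the sulfatase gene Arsb (-0.23) each differed in sign between pairs.

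Of the 7 genes for the degradation of sphingolipids, 3 were higher. Smpd1 (ENSMUSG00000037049, chr7:105203564-105207597, plus strand) encodes acid sphingomyelinase, which cuts sphingomyelin to ceramide. Its levels of 130, 124, 133 and 118 CPM in Mettl3-RNP libraries stood apart from 101, 75.9, 72.0 and 80.4 CPM in Pulsed libraries. The difference was 1.55-fold (log2 0.63, SE 0.09, adjusted p = 0.0196). Arsa (ENSMUSG00000022620, chr15:89355820-89361653, minus strand) encodes arylsulfatase A, the sulfatase of sulfatide. It was at 73.5, 71.1, 52.0 and 77.8 CPM in Mettl3-RNP and at 62.5, 51.7, 32.6 and 52.8 CPM in Pulsed libraries, so that pair 3 was low in both groups, the groups overlapped and each pair rose (log2 0.48, SE 0.09, adjusted p = 0.0301). Arsa shares 1182 bases of exon with the antisense RNA gene C230037L18Rik, which had 1.94 to 6.73 CPM, and whether strand was used in counting is not stated.

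Psap (ENSMUSG00000004207, chr10:60113431-60138380, plus strand) encodes prosaposin, the precursor of the saposins that present sphingolipids to their hydrolases. It had 200, 229, 252 and 219 CPM in Mettl3-RNP and 171, 169, 191 and 168 CPM in Pulsed libraries. The groups did not overlap and the difference was small (log2 0.36, SE 0.07, adjusted p = 0.0340). Hexa, the alpha subunit of beta-hexosaminidase and the member of this class with the highest level per length, was at 205, 222, 253 and 246 CPM in Mettl3-RNP and 214, 226, 209 and 215 CPM in Pulsed libraries. Its pairs split 2 to 2 in sign and the fitted value was 0.09 (SE 0.08, adjusted p = 0.551). The glycosidase gene Gla (-0.03), the galactocerebrosidase gene Galc (0.03) and the acid ceramidase gene Asah1 (-0.04) did not pass and also differed in sign between pairs.

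All 7 genes for glycoprotein and glycogen degradation had a fitted value above 0, and 1 of them passed. Fuca1 (ENSMUSG00000028673, chr4:135648004-135668235, plus strand) encodes alpha-L-fucosidase. It had 128, 140, 159 and 114 CPM in Mettl3-RNP and 105, 106, 110 and 95.3 CPM in Pulsed libraries. The ranges were separate, with a fitted log2 difference of 0.37 (SE 0.07, adjusted p = 0.0374). Man2b1, lysosomal alpha-mannosidase, was the most abundant of the class, at 605, 739, 768 and 667 CPM in Mettl3-RNP and 564, 719, 632 and 629 CPM in Pulsed libraries. Each pair was slightly higher, the groups overlapped and the fitted value was 0.13 (SE 0.07, adjusted p = 0.344). Neu1 (sialidase, 0.16), Ctsa (the protective protein of sialidase and beta-galactosidase, 0.15), Aga (0.10) and Manba (0.10) were also higher in 4 of 4 pairs without passing, and Gaa, the acid alpha-glucosidase that degrades glycogen, had a fitted value of 0.04.

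Of the 8 proteases, 7 were tested and 2 were higher. Ctsd (ENSMUSG00000007891, chr7:141929646-141941775, minus strand) encodes cathepsin D, the main aspartic protease of lysosomes. It was the most abundant member, with 1205, 2007, 1830 and 2001 CPM in Mettl3-RNP and 1077, 1081, 1041 and 1164 CPM in Pulsed libraries. The Pulsed libraries were close to each other, Mettl3-RNP library 1 lay just above them and the other 3 far above (1.58-fold, log2 0.66, SE 0.12, adjusted p = 0.0326). Exons of Ctsd share 808 bases with those of Gm49369 on the same strand, a gene at no more than 0.0467 CPM in any library. Ctsb (ENSMUSG00000021939, chr14:63358384-63383372, plus strand) encodes the cysteine protease cathepsin B. Its levels were 222, 238, 249 and 238 CPM in Mettl3-RNP and 197, 186, 187 and 171 CPM in Pulsed libraries. They did not overlap, with a log2 difference of 0.36 (SE 0.08, adjusted p = 0.0465), the called value nearest the threshold. Exons of Ctsb share 1184 bases with those of Fdft1 on the other strand, a gene at 17.7 to 66.8 CPM whose own fitted value was -0.46 (adjusted p = 0.228).

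Tpp1, the tripeptidyl peptidase, lay just outside the threshold, higher in 4 of 4 pairs by a fitted 0.32 (SE 0.07, adjusted p = 0.0522). It passed with DESeq2, limma-voom, total counts as library size and the filter of 10 counts in every library. Ctsz differed in sign between pairs (0.07). Ctsl, Ctss, Ctsh and Lgmn, cysteine proteases abundant in antigen-presenting cells, had low counts. Lgmn had 0.484 to 2.39 CPM over the 8 libraries, Ctss 0.228 to 1.87 CPM, and Ctsh, with 0 to 17 counts, fell under the count filter. Ctsl had 9.90 CPM in Pulsed library 1 and 0.356 to 2.85 CPM in the other 7.

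Neither of the lipid and thioester hydrolases passed. Ppt1, which removes palmitate from proteins, had 108, 104, 124 and 116 CPM in Mettl3-RNP and 104, 108, 123 and 101 CPM in Pulsed libraries. The groups overlapped throughout (0.05, SE 0.07), and Lipa, the acid lipase of cholesteryl esters, had a fitted value of -0.03. Of the phosphatases, Acp2 was at 49.6, 33.6, 32.5 and 41.4 CPM in Mettl3-RNP and 52.6, 39.8, 36.4 and 43.4 CPM in Pulsed libraries. Each Mettl3-RNP library was slightly below its pair while the groups overlapped (-0.14, SE 0.07, adjusted p = 0.285). Acp5, the tartrate-resistant phosphatase of osteoclasts and macrophages, reached at most 0.513 CPM in any library.

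**Figure D3:**
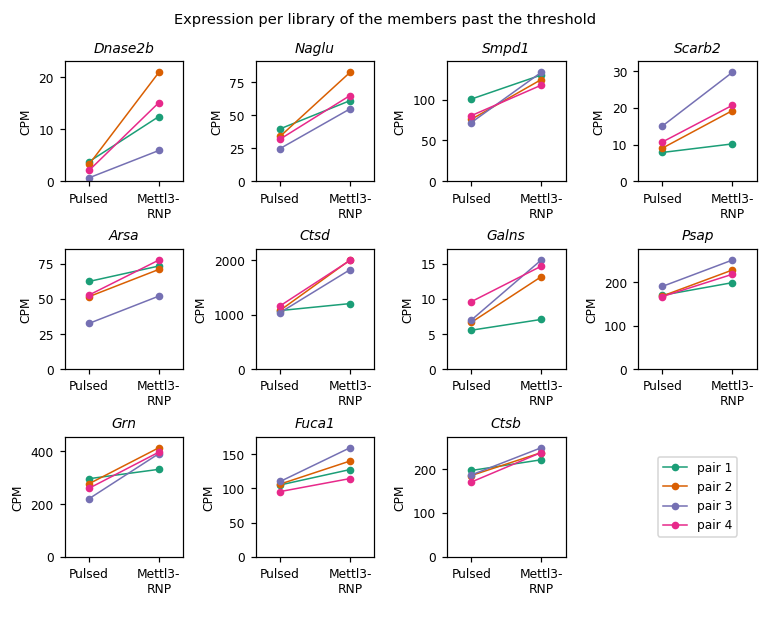
Expression in CPM (y axis, from 0) in the Pulsed and the Mettl3-RNP library of each pair (x axis, joined by a line, 1 colour per pair) for the 11 members past the threshold, ordered by adjusted p. Every line rises. For Ctsd the line of pair 1 runs from 1077 to 1205 CPM while the other 3 end at 1830 to 2007 CPM.

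The 8 membrane and cholesterol export genes had fitted values of both signs, and 1 of them passed. Scarb2 (ENSMUSG00000029426, chr5:92589169-92654692, minus strand) encodes LIMP-2, a membrane protein that carries glucocerebrosidase to lysosomes. It had 10.2, 19.3, 29.7 and 20.7 CPM in Mettl3-RNP and 7.88, 9.06, 15.1 and 10.7 CPM in Pulsed libraries. Mettl3-RNP library 1 lay below the highest 2 Pulsed libraries, and each pair was higher (1.81-fold, log2 0.85, SE 0.13, adjusted p = 0.0200). Lamp1, a main glycoprotein of the lysosomal membrane, had 264, 340, 371 and 341 CPM in Mettl3-RNP and 369, 477, 400 and 359 CPM in Pulsed libraries. Each pair was lower and the groups overlapped, with a fitted value of -0.29 (SE 0.09, adjusted p = 0.124). Its exons share 2564 bases with those of Grtp1 on the other strand, which had at most 3.58 CPM and was lower in Mettl3-RNP cells (-1.36, adjusted p = 0.0328).

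Lamp2 (-0.08) differed in sign between pairs. Npc2, the soluble cholesterol carrier, was lower in 4 of 4 pairs with separate ranges, 330 to 383 CPM in Mettl3-RNP and 385 to 421 CPM in Pulsed libraries, but its fitted value of -0.13 had an adjusted p of 0.357. Its membrane partner Npc1 had a fitted value of 0.14. Mcoln1, the calcium channel of the lysosomal membrane, had a fitted value of 0.21 (adjusted p = 0.161), and Cln3 one of -0.03. Cd68, a LAMP-family glycoprotein best known from macrophages, was at 3.71, 23.8, 11.1 and 28.3 CPM in Mettl3-RNP and 5.01, 3.16, 6.56 and 3.26 CPM in Pulsed libraries. Libraries 2 and 4 of the Mettl3-RNP group were far above all the others while pair 1 was lower by 0.43 on the log2 scale, and the fitted value of 1.63 had an SE of 0.57 and an adjusted p of 0.142. It passed without replicate 1 and when every gene with at least 1 count was kept.

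Of the regulators, only Grn passed. Grn (ENSMUSG00000034708, chr11:102321141-102327874, plus strand) encodes progranulin, a secreted protein that is cut into granulins in lysosomes. Its levels were 332, 414, 391.8 and 398 CPM in Mettl3-RNP and 297, 277, 220 and 260 CPM in Pulsed libraries. They did not overlap (1.46-fold, log2 0.55, SE 0.11, adjusted p = 0.0361). Exons of Grn share 1273 bases with those of Fam171a2 on the other strand. That gene had 0.438 to 1.40 CPM and a fitted value of 0.99 (adjusted p = 0.150). Sumf1, the enzyme that activates sulfatases such as those made from Galns and Arsa, had a fitted value of 0.0037.

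The transcription factor gene Tfeb was at 6.14, 2.62, 1.57 and 3.36 CPM in Mettl3-RNP and 6.61, 1.12, 0.671 and 1.04 CPM in Pulsed libraries. Both libraries of pair 1 stood above the rest, and the other 3 pairs were higher by 1.16 to 1.64 on the log2 scale. The fitted value of 0.95 (SE 0.31) had an adjusted p of 0.120 with edgeR and the filter used here, while DESeq2 and the lower count filter called it and limma-voom gave 0.64 (adjusted p = 0.282) and the fit with no replicate block 0.54. Tfe3 was at 58.5, 52.6, 34.7 and 47.7 CPM in Mettl3-RNP and 57.8, 55.1, 35.4 and 46.0 CPM in Pulsed libraries. Its values followed the pair and not the group, with a fitted -0.01 (SE 0.07) whose sign depended on the scaling. The related factor gene Mitf, which is not a member, was far more abundant, at 98.8 to 205 CPM in Mettl3-RNP and 74.6 to 162 CPM in Pulsed libraries. It was higher in each pair (0.30, SE 0.08) without passing (adjusted p = 0.0709).

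**Figure D4:**
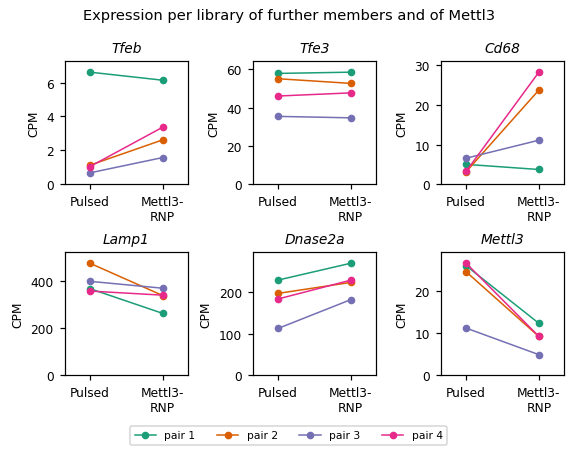
Expression in CPM (y axis, from 0) in the Pulsed and the Mettl3-RNP library of each pair (x axis, joined by a line, 1 colour per pair) for 5 members that did not pass and for Mettl3. Tfeb and Cd68 are higher in Mettl3-RNP cells in pairs 2, 3 and 4 but not in pair 1, the lines of Tfe3 are flat, Lamp1 is lower and Dnase2a higher in each pair with overlapping groups, and Mettl3 falls in each pair.

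Levels of different members were compared as CPM per kilobase of the canonical transcript, and they spanned several orders of magnitude. Ctsd led with a mean of 513 in Pulsed and 828 in Mettl3-RNP cells. It was followed in Pulsed cells by Lamp1 at 156, Man2b1 at 147 and Lamp2 at 146, which are too close together to be ranked given the spread between libraries. In Mettl3-RNP cells Grn, at 164, and Man2b1, at 160, followed Ctsd. The lowest levels were those of Acp5, Ctsh, Lgmn, Ctsl, Ctss, Galc and Arsb, each under 1 in both groups. The called genes were found along most of this range, from Ctsd down to Dnase2b, which went from 0.908 to 5.06.

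**Figure D5:**
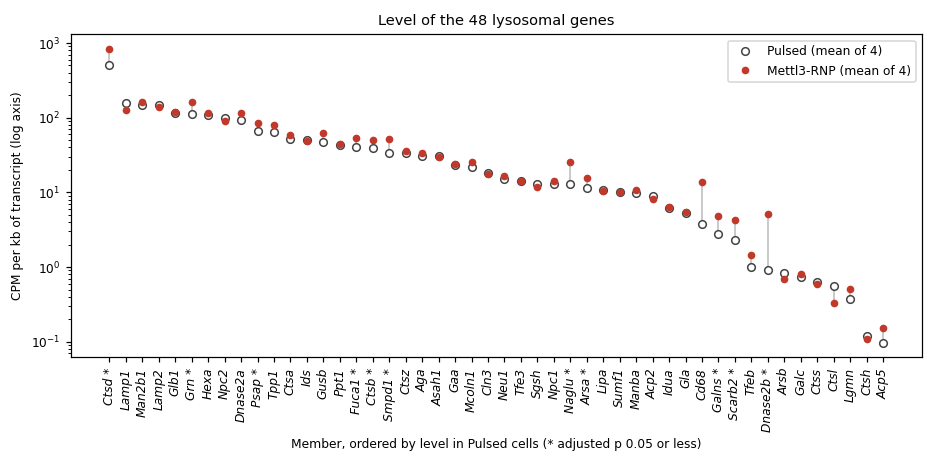
Mean expression of the 48 members in CPM per kilobase of transcript (y axis, log scale) in Pulsed (open) and Mettl3-RNP cells (red), 4 libraries each, ordered by the Pulsed level (x axis) with an asterisk for the 11 members past the threshold. Most pairs of points coincide on this scale, and the longest lines are those of Dnase2b, from 0.908 to 5.06, and Cd68, from 3.75 to 13.9.

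Summed over the 48 members, expression was 6630, 7618, 7620 and 7638 CPM in Mettl3-RNP and 6303, 6381, 5823 and 6162 CPM in Pulsed libraries 1 to 4, or 0.698 to 0.796% and 0.517 to 0.660% of the raw counts. Ctsd made up much of the gap. Without it the sums were 5424 to 5790 CPM and 4782 to 5300 CPM, and the 2 groups were still separate.

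The pairs did not contribute equally. Pair 1 gave the smallest of the 4 differences for 10 of the 11 called members, and pair 4 did so for Fuca1. The median difference of the 11 was 0.28 in pair 1, 0.71 in pair 2, 0.83 in pair 3 and 0.61 in pair 4, and that of the other 36 tested members was -0.07, 0.05, 0.16 and 0.17 in the same order. Over all tested genes the medians lay between -0.03 and 0.02. The fall of Mettl3 was also smallest in pair 1, at -1.07, and measured -1.41, -1.18 and -1.52 in pairs 2 to 4; its part in the order of the pairs was not tested.

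The transcripts of the members were also counted for exons. The 11 called members had a median of 2.34 exon junctions per kilobase of transcript, the other 36 tested members 3.36 and all tested protein-coding genes 2.62. Their median numbers of exons were 9.0, 9.5 and 9.0 and their median lengths 2635, 3307 and 3486 bases, all given as a description with no test.

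Because several members are also high in macrophages and osteoclasts, markers of other cell types were set beside them. The 12 macrophage markers summed to 5.38 to 12.0 CPM in Mettl3-RNP and 7.89 to 12.3 CPM in Pulsed libraries. Within pairs, the Mettl3-RNP sum was lower in pair 1, at 5.38 beside 12.3 CPM, and higher in pairs 2, 3 and 4. Only 4 of these markers had enough counts to test, and Adgre1 was lower in Mettl3-RNP cells (-1.13, adjusted p = 0.0435). Lyz2, the most abundant of them, differed by -1.42, 0.42, 0.19 and 0.78 on the log2 scale in pairs 1 to 4. Its fitted value was 0.02 (adjusted p = 0.977), and those of the other tested macrophage markers were below 0. C1qa was at 0 in 3 libraries of each group. The 8 neutrophil markers summed to at most 0.398 CPM in any library. The 5 osteoclast markers summed to 157 to 225 CPM and 141 to 187 CPM, nearly all of it from Nfatc1, which mast cells also express, and Calcr and Ctsk did not reach 1 CPM in any library. The 6 dendritic cell markers summed to 2.66 to 6.75 CPM and 4.38 to 11.0 CPM, with H2-Ab1 lower in Mettl3-RNP cells (-0.78, adjusted p = 0.0492) and Flt3, the other tested marker of this list, at a fitted 1.29 (adjusted p = 0.513). The 5 basophil markers summed to 1795 to 2420 CPM and 2244 to 3322 CPM, with Il18rap (-0.79, adjusted p = 0.0324) and Ifitm1 (-0.60, adjusted p = 0.0471) lower and Cd200r3 higher in 4 of 4 pairs without passing (0.25, adjusted p = 0.151). Mcpt8 (-0.42, adjusted p = 0.267) and Prss34 (-0.68, adjusted p = 0.299) were lower in 4 of 4 pairs without passing. With each replicate left out in turn, Adgre1 passed in none of 4 fits and Cpa3, H2-Ab1, Il18rap and Ifitm1 in 1 of 4 each. The part of these markers in the lysosomal differences was not tested.

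The rest of the lysosomal pathway was taken from 8 further lists, of which 145 genes were tested. Of these, 4 were higher (2.76%) and 1 was lower (0.690%), shares near the 2.35% and 1.39% of all tested genes, and 72 had a fitted value above 0 (49.7%, with 49.8% of all tested genes). Above 0 were 67.9% of 28 other hydrolases and cofactors and 69.6% of 23 other membrane proteins, beside 72.3% of the members. In the proton pump, sorting, mTORC1, autophagy and fusion lists the share was 20.8% to 53.3%. Among 28 other hydrolases and cofactors, Man2b2, a mannosidase, was higher by 0.41 (adjusted p = 0.0215) and Epdr1, a lysosomal lipid-binding protein, by 1.00 (adjusted p = 0.0285). Among 23 other membrane proteins Litaf, an endosomal and lysosomal membrane protein, was higher by 1.00 (adjusted p = 0.0457). Of 19 tested subunits of the proton pump V-ATPase, Tcirg1, the a3 subunit, was higher by 0.46 (adjusted p = 0.0474), and 7 of the 19 (36.8%) had a fitted value above 0. With each replicate left out in turn, Litaf passed in 2 of 4 fits and Man2b2, Epdr1 and Tcirg1 in 1 of 4 each, all with the same sign throughout.

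Of 16 genes for mannose 6-phosphate tagging and sorting, Igf2r was lower. It encodes the large mannose 6-phosphate receptor that delivers hydrolases to endosomes. Its levels were 7.13, 5.16, 8.03 and 5.67 CPM in Mettl3-RNP and 28.8, 15.9, 18.5 and 6.96 CPM in Pulsed libraries. Pair 4 differed least, the groups overlapped at Pulsed library 4, and the fitted value was -1.31 (SE 0.25, adjusted p = 0.0340). It passed in 1 of 4 fits with a replicate left out, at -1.60 to -1.09. None of 19 genes of mTORC1 and folliculin, 24 of autophagy or 15 of the fusion machinery passed with edgeR. At an unadjusted p under 0.05, 2 of the mTORC1 genes were higher and 1 lower, 3 of the autophagy genes were higher and 5 lower, and of the fusion genes 1 was lower, where 22.5% of all tested genes had such a p in either direction. Of the autophagy genes, 5 of 24 had a fitted value above 0, or 20.8% beside the 49.8% of all tested genes.

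The promoters were searched for the core of the element that TFEB, TFE3 and MITF bind, TCACGTG on either strand, in windows from 250 bases before to 50 bases after the start of transcription (RefSeq, GRCm38.p6). A window was found for 42 of the 48 members, leaving Aga, Asah1, Ctsb, Ctsh, Galns and Npc1 without one. The motif was in the windows of 13 of the 42 members, or 31.0%, and of 4.29% of 27025 genes. Counted by window it was in 25.5% of 51 windows of members and in 3.77% of all 32851 windows. The shorter core CACGTG, which it contains, was in 14 of the 42 members and in 8.09% of all genes, and the longer TCACGTGA, which contains both, in 6 and in 1.12%.

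The motif occurred among members of either outcome. Of the 9 called members with a window, 3 held it (Arsa, Ctsd and Naglu), and of the 33 others 10 did (Cln3, Ctsa, Gaa, Gla, Glb1, Lamp1, Lgmn, Mcoln1, Sgsh and Sumf1). The stretches before the start of the 3 called genes and of 4 that did not pass, Lamp1, Mcoln1, Glb1 and Gla, are shown. Each is 30 bases, 5′ to 3′ on the strand of the gene, and capitals mark the matches of the motif or of its reverse complement.
Naglu (chr11:101070009-101070038, plus strand): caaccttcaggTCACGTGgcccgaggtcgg
Arsa (chr15:89477425-89477454, minus strand): cttcaactcagtgTCACGTGttgtctgctc
Ctsd (chr7:142387908-142387937, minus strand): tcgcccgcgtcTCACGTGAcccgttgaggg
Lamp1 (chr8:13159113-13159142, plus strand): gccCACGTGAtgccgactggCACGTGAcca
Mcoln1 (chr8:3500462-3500491, plus strand): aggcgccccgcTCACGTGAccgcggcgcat
Glb1 (chr9:114401018-114401047, plus strand): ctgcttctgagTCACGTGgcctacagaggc
Gla (chrX:134601182-134601211, minus strand): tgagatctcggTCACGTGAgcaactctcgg

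The match shown ended 67 bases before the start in Naglu, 10 in Arsa and 91 in Ctsd. Ctsd, Mcoln1 and Gla had 2 separate matches each before the start. Lamp1 had 4, the most of these genes. Its level was lower in each pair without passing, and Mcoln1, Glb1 and Gla had fitted values of 0.21, 0.04 and -0.03. A match of letters is a description and not a bound site, and no binding was measured in these cells. The part of the motif in the differences was not tested.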

How the data were processed

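Poly-A RNA of 4 Mettl3-RNP and 4 Pulsed cultures was sequenced by the study. The authors aligned the reads to GRCm39 and counted them per Ensembl gene, and the deposited values are raw counts with no normalization. The submitters' processing notes name FastQC 0.11.9, HISAT2 2.2.1 and featureCounts 2.0.1. The methods mention a batch correction after counting, which whole-number counts do not carry. Strand and multimapping settings are not given in the sources used here.

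Symbols and positions came from GENCODE M39 (GRCm39), which named 56017 of 56748 IDs. Genes were kept by filterByExpr of edgeR 4.0.16 (R 4.3.3), scaled by TMM and tested with glmQLFit and glmQLFTest, blocked on replicate number. Benjamini-Hochberg adjustment ran over 14942 genes. Log2 CPM used a prior count of 2, and the steps were tested on simulated data. Alternatives were DESeq2 1.42.0, limma 3.58.1 voom, 2 scalings, 2 count filters, no block and leaving out each replicate.

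The block rests on the series text, which names 4 mice for the 8 samples; the labels do not say that a replicate number marks a mouse. After subtraction of the group means, libraries sharing a number correlated at 0.825, 0.489, 0.879 and 0.765 in pairs 1 to 4 over 11985 genes with a mean of 1 CPM or more, against at most 0.183 between different numbers. Over all 14942 genes they were 0.534, 0.0738, 0.735 and 0.580, against at most 0.249, so pair 2 stood out only among the better-measured genes. P-values measure only the spread between these libraries.

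The members and all lists were chosen with earlier results of these data known. Values in every library are given for members past the threshold, for the member of each role with the highest level per kilobase, and for Tfeb, Tfe3, Dnase2a and Cd68. Other members get fitted values or ranges. Genes of further lists are named where they passed, and Mitf and some markers are named that did not pass.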

Additional observations from a re-analysis of the deposited data

Results flagged for a closer look

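Among the 42 groups of 4 values behind the members given library by library, 2 held a library set apart from the other 3 by Dixon's test at its 95% level, where chance sets apart about 1 group in 20, or 2.1 of 42. Psap was highest in Pulsed library 3, at 191 CPM, with the other 3 Pulsed libraries at 168 to 171 CPM, and all 4 Mettl3-RNP libraries were above it. Tfeb was highest in Pulsed library 1, at 6.61 CPM, with the other 3 Pulsed libraries at 0.671 to 1.12 CPM; the Mettl3-RNP library of the same number, at 6.14 CPM, was also the highest of its group.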

How the results depend on the processing

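With edgeR and no replicate block, that is without the pairing, the count of members past the threshold went from 11 to 0 and the count with a fold change of 1.5 from 6 to 0, with a smallest adjusted p of 0.427. With replicates left out in turn each of these counts ran from 1 to 8. The DESeq2 Wald test counted 1 lower member, Lamp1, where edgeR counted 0. Under the 2 other scalings, the 2 other filters, DESeq2 and limma-voom the count was 11 to 16, beside 2.95% to 9.70% of all genes, and 8 of the 11 genes remained when every gene with at least 1 count was kept. The median log2 fold change of the members stayed above 0 under each alternative, at 0.0728 to 0.146. For the 11 genes, 81 of 121 single values kept their side of the threshold, 40 lost it and 0 turned. Members with a fitted value near 0 turned sign: Glb1 ran from -0.0098 to 0.0794 (-0.0041 without replicate 1) with replicates left out, and Tfe3 from -0.0513 to 0.0056, and Tfe3 stood at 1.45e-07 with the size factors of DESeq2, 0.0255 with total counts and 0.0079 with the lowest filter. The causes were not tested. Ctsh, with 0 to 17 counts per library, fell under the count filter.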
